A study of Mus musculus with 18 samples.

Results

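Neurons whose axons are cut or crushed switch on a shared set of genes, and 9 of these axon injury response genes were followed here in spinal and facial motor neurons and in ventral spinal cord tissue of mice. The genes were Atf3, Sprr1a, Gap43, Jun, Gal, Sox11, Ecel1, Gadd45a and Adcyap1. Every probe set that the array annotation assigns to them was taken, whatever its values, which gave 16 of the 45037 probe sets that are not array controls. Sox11 has 6 of the 16, Jun and Adcyap1 have 2 each, and each of the other genes has 1.

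The study profiled RNA on 18 Affymetrix arrays in 6 groups of 3: ventral spinal cord tissue, spinal cord motor neurons and facial nucleus motor neurons, each sampled in wildtype and SOD1 mutant mice. SOD1 encodes the antioxidant enzyme superoxide dismutase 1, and mutant forms of it cause familial amyotrophic lateral sclerosis, in which motor neurons degenerate. Facial motor neurons lie in the brainstem and drive the muscles of the face. RNA of all groups went through a linear amplification driven by T7 RNA polymerase. The sample titles carry the mark D60, which the labels do not explain. The labels used here give no SOD1 allele, sex or method of collecting the neurons, and do not tie arrays to animals, so the p-values below measure only the spread between these arrays, which may be partly technical.

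In a resting motor neuron Atf3 and Sprr1a are nearly silent, and both are among the most strongly induced genes after nerve injury. The transcription factors ATF3 and JUN are basic leucine zipper proteins that pair with each other, and with SOX11 they drive a programme of axon regrowth. Downstream and beside them act the growth cone protein GAP43, the membrane protein ECEL1, the stress protein GADD45A and the neuropeptides galanin (Gal) and PACAP (Adcyap1), which injured neurons make in larger amounts.

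Of the 9 genes, Atf3 and Sprr1a had the 2 largest genotype differences as fitted on all arrays, both in spinal motor neurons. The Atf3 level on the log2 scale averaged 11.55 ± 0.71 (SD, n = 3) in SOD1 mutant and 7.43 ± 2.04 (SD, n = 3) in wildtype neurons. Sprr1a, Gap43, 1 of the 6 Sox11 probe sets and Ecel1 also had all SOD1 mutant spinal arrays above all wildtype ones. In facial motor neurons the separated probe sets were both of Jun, with the mutant higher, and those of Gal, Ecel1 and 2 of Sox11, with the mutant lower. None of the 16 probe sets passed an adjusted p of 0.05 for genotype in any of the 3 kinds of sample.

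Short stretches upstream of the start of transcription are shown for 4 members. The basic leucine zipper factors of this response, ATF3 and JUN, bind related 7- and 8-letter motifs. Promoter windows from RefSeq (GRCm38.p6, 250 bases before to 50 after a start) were available for 8 of the 9 genes, as 9 windows. They were searched on both strands for TGACTCA (reverse complement TGAGTCA, bound by JUN and FOS dimers), TGACGTCA (its own reverse complement, bound by ATF and CREB proteins) and the close variants TGACATCA and TTACGTCA. The motifs were chosen after the sequences had been read. All 4 genes lie on the minus strand. The stretches run 5′ to 3′ to the base before the start, 250 bases for Sprr1a and 100 for the others, with matches in capitals.
Atf3, chr1:191183334-191183433: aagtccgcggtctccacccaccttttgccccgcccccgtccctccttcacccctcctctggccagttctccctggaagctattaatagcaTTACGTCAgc
Jun, chr4:95052223-95052322: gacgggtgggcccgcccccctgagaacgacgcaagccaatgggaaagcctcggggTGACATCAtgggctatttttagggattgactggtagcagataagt
Sox11, chr12:27342719-27342818: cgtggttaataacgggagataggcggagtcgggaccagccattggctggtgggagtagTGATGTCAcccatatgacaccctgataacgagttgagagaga
Sprr1a, chr3:92485882-92486131: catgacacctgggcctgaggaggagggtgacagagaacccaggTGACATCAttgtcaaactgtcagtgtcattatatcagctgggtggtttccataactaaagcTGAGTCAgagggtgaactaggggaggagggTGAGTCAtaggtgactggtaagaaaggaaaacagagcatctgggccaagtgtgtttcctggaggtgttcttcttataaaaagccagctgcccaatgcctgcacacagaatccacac
Sprr1a held TGAGTCA at 146 and 116 bases before its start and TGACATCA at 207 bases. Jun held TGACATCA at 45 bases, Sox11 the reverse complement TGATGTCA at 42 bases, and Atf3 TTACGTCA at 10 bases. Over all 32851 promoter windows of the table, 5.2% held TGACTCA, 0.222% held at least 2 copies of it, 3.62% held TGACATCA, 1.79% held TGACGTCA and 0.499% held TTACGTCA. Of the 9 member windows 1 held TGACTCA, 3 TGACATCA, 0 TGACGTCA and 1 TTACGTCA. At least 1 of the 4 motifs was present in 4 of the 9 member windows and in 10.8% of all windows. Because the motifs were chosen after the sequences had been read, these shares cannot test for enrichment. The 4 genes shown are those with a match. The matches do not overlap each other, and a match of letters is not evidence of binding.

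Levels below are log2(intensity + 16) after quantile normalization, in the order of replicates 1, 2 and 3. Levels of different probe sets are not comparable with each other. As a gauge of background, 3 Y-linked genes lay between 4.38 and 8.60 on all 18 arrays, while Xist lay between 14.04 and 15.59. Differences are SOD1 mutant minus wildtype with the standard error (SE) of the limma fit, and adjusted p is the Benjamini-Hochberg value over all 45037 probe sets.

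Among the transcription factors, Atf3 was near background in wildtype neurons and tissue and stood out in SOD1 mutant spinal motor neurons. Its level was 8.70, 8.51 and 5.08 in wildtype and 11.20, 12.36 and 11.07 in SOD1 mutant spinal motor neurons. The mutant arrays all lay above the wildtype ones, and the wildtype arrays reached the range of the Y-linked genes, so no fold is given. The log2 difference was 4.12 (SE 0.81, unadjusted p = 1.92e-04, adjusted p = 0.17 in limma). Because the wildtype levels are near background, this value moves with the pseudocount, from 3.60 with 64 to 4.43 with 1. Wildtype replicate 3 was far below the other wildtype arrays, and without it the difference was 2.94 (adjusted p = 0.133).

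Atf3 in the other samples lay between these values or at background. Facial motor neurons had 8.75, 8.07 and 6.56 in wildtype and 9.75, 8.07 and 10.19 in the mutant, so that replicate 2 of both genotypes had the same level. The facial difference was 1.55 (SE 0.75, adjusted p = 0.433). Ventral cord tissue had 8.06, 7.10 and 6.87 against 8.55, 8.45 and 8.03 in the mutant, a difference of 1.003 (SE 0.38, adjusted p = 0.651), with 1 wildtype array inside the mutant range. In bulk tissue, fewer cells of a type and less RNA per cell cannot be told apart, and this applies to every tissue value below.

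**Figure D1:**
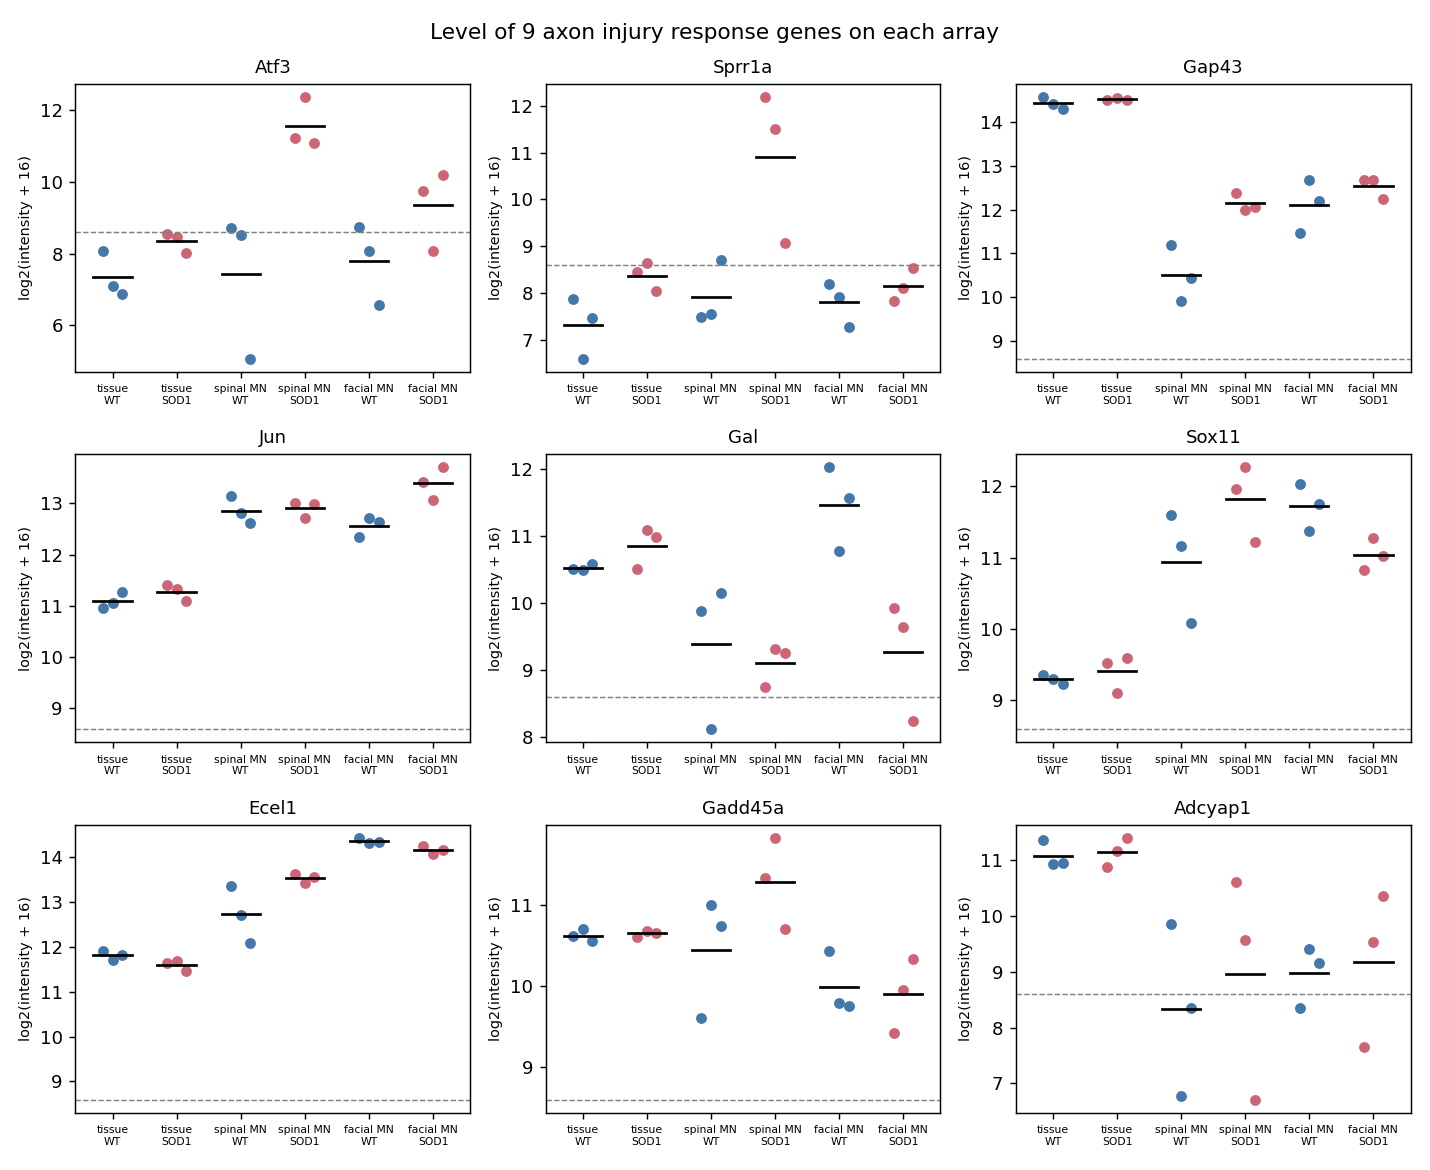
Level of each of the 9 genes (vertical axis, log2(intensity + 16), probe set with the highest mean for genes with several) on each array of the 6 groups (horizontal axis; blue wildtype, red SOD1 mutant, 3 arrays a group, black bars are means). The dashed line marks 8.60, the highest level of 3 Y-linked genes; Atf3 in SOD1 mutant spinal motor neurons lies at 11.07 or above, and Gal in wildtype facial motor neurons at 10.78 or above.

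Jun encodes the AP-1 subunit that pairs with ATF3, and its arrays were separated by genotype in facial motor neurons. Probe set 1448694_at read 12.33, 12.71 and 12.63 in wildtype and 13.42, 13.06 and 13.70 in SOD1 mutant facial motor neurons, a difference of 0.84 (SE 0.19, adjusted p = 0.135). Probe set 1417409_at read 11.70, 11.64 and 11.73 against 13.08, 12.04 and 12.84, a difference of 0.96 (SE 0.24, adjusted p = 0.157). The genotypes did not overlap on either probe set. In spinal motor neurons the same probe sets differed by 0.05 (95% confidence interval -0.39 to 0.48) and 0.80 (-0.05 to 1.65), and their arrays overlapped. Tissue differed by 0.17 and -0.03.

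Sox11, a SoxC transcription factor of immature and regrowing neurons, pointed in opposite directions in the 2 kinds of motor neuron on some probe sets. Probe set 1453002_at read 7.87, 8.73 and 8.33 in wildtype and 10.18, 10.62 and 9.91 in SOD1 mutant spinal motor neurons, a difference of 1.92 (SE 0.49, adjusted p = 0.458). In facial motor neurons it read 10.02, 9.99 and 9.70 in wildtype and 9.04, 9.03 and 9.32 in the mutant, a difference of -0.77 (SE 0.38, adjusted p = 0.442). All mutant spinal arrays thus lay above, and all mutant facial arrays below, the wildtype arrays of their kind. The wildtype spinal levels were close to the highest Y-linked level, and the tissue difference was 0.13.

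The brightest Sox11 probe set, 1429051_s_at, followed the same order with some overlap. It read 11.60, 11.16 and 10.08 in wildtype and 11.97, 12.27 and 11.22 in SOD1 mutant spinal motor neurons (difference 0.87, SE 0.38, adjusted p = 0.693), and 1 mutant array lay inside the wildtype range. In facial motor neurons it read 12.03, 11.37 and 11.76 against 10.82, 11.27 and 11.02, without overlap (difference -0.68, SE 0.24, adjusted p = 0.286). The other 4 Sox11 probe sets had spinal differences of 0.22 to 1.37 and facial differences of -0.43 to 1.53, with overlapping arrays throughout. The facial value of 1.53 belonged to 1431225_at, which averaged 6.50 in wildtype facial neurons, within the range of the Y-linked genes.

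**Figure D2:**
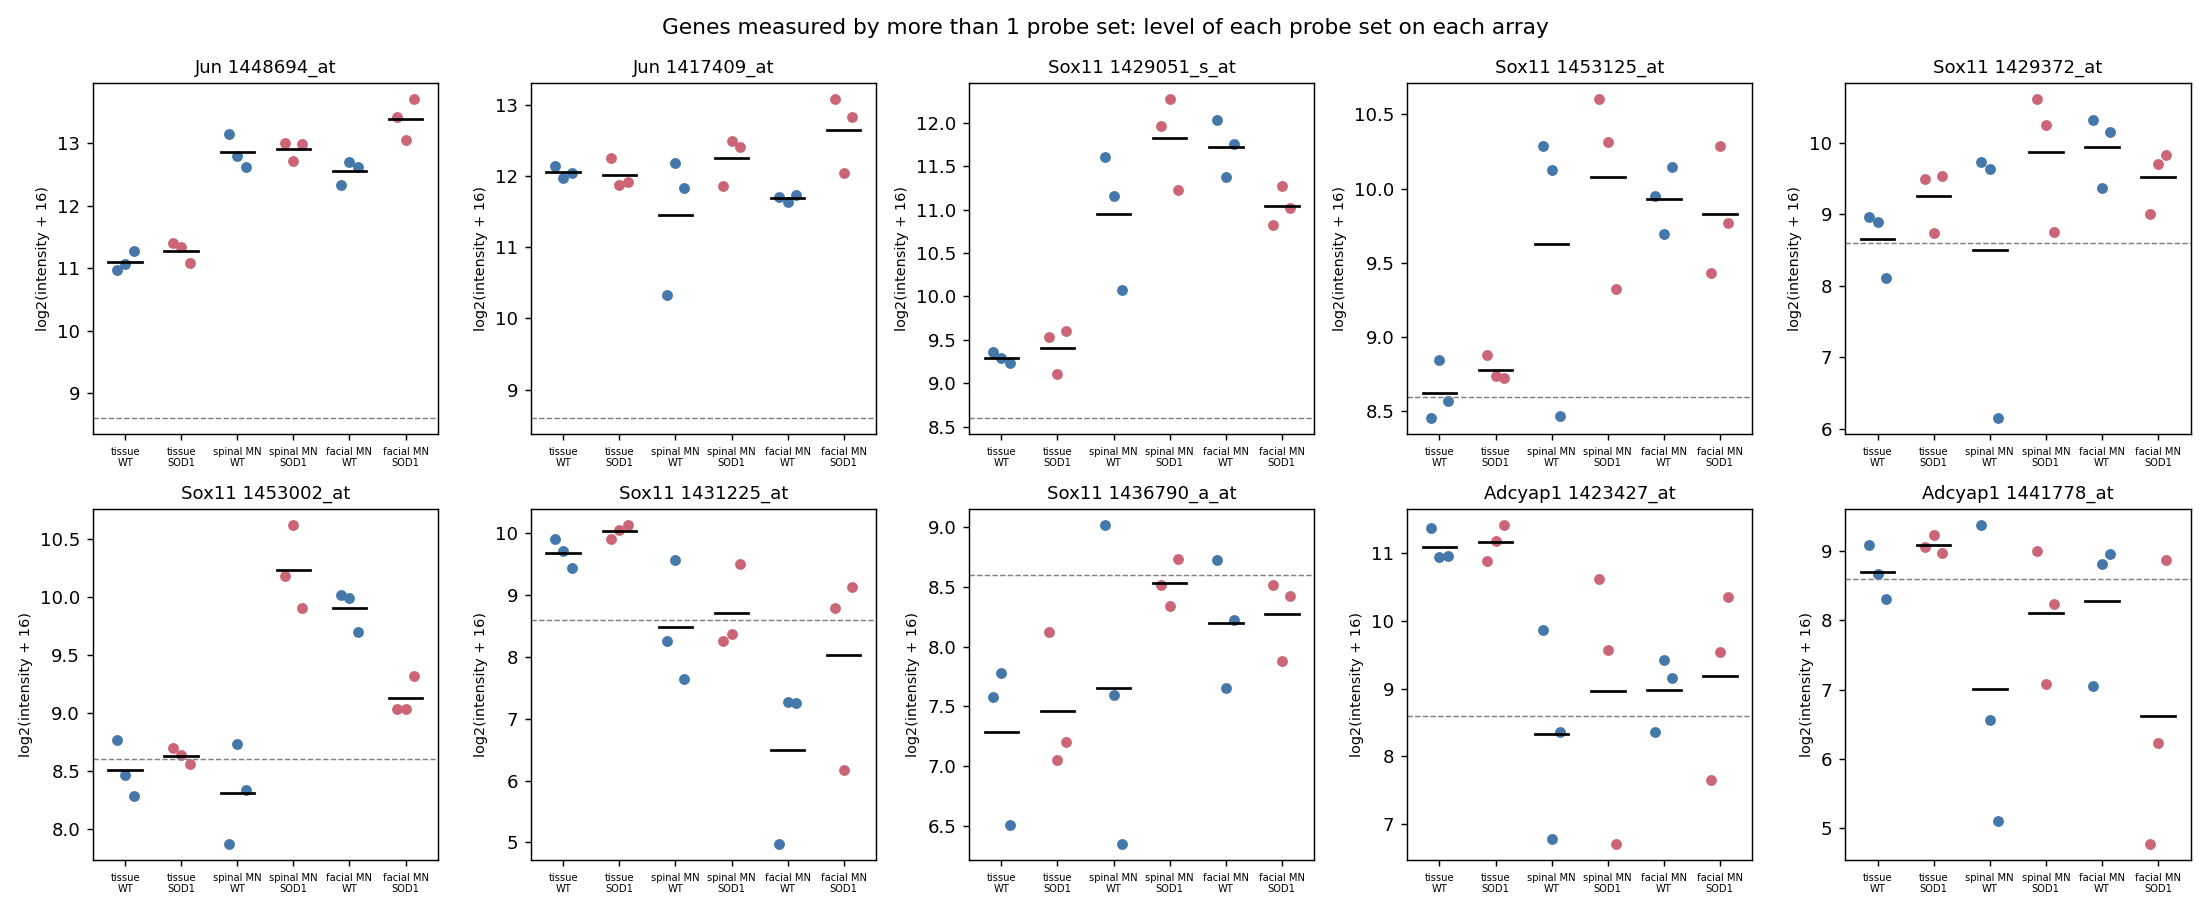
Level (vertical axes, log2(intensity + 16)) of each probe set of Jun, Sox11 and Adcyap1 on each array of the 6 groups (horizontal axes; blue wildtype, red SOD1 mutant, black bars are means, dashed line at 8.60 as the highest Y-linked level). Both Jun panels show all 3 SOD1 mutant facial arrays above the wildtype ones, and Sox11 1453002_at shows the spinal and facial genotype differences of 1.92 and -0.77.

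The outgrowth genes Sprr1a and Gap43 were both higher in SOD1 mutant spinal motor neurons. Sprr1a encodes a small proline-rich protein of the skin's cornified envelope that injured neurons also make. Its level was 7.47, 7.54 and 8.71 in wildtype and 12.20, 11.50 and 9.06 in mutant spinal motor neurons. The difference was 3.01 (SE 0.72, adjusted p = 0.369). Mutant replicates 1 and 2 were far above all wildtype arrays, while replicate 3 exceeded the highest wildtype array by little. Without replicate 3 the difference was 3.94 (adjusted p = 0.153), and without replicate 1 it was 2.37 (adjusted p = 0.908). The 6 keratinocyte markers that were listed as a check on skin RNA summed to 5821 to 12240 intensity units on the wildtype and 4740 to 6623 on the mutant spinal arrays.

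Sprr1a stayed close to the Y-linked range elsewhere. In facial motor neurons it read 8.19, 7.92 and 7.28 in wildtype and 7.83, 8.11 and 8.53 in the mutant (difference 0.36, 95% confidence interval -1.08 to 1.79). In tissue it read 7.88, 6.60 and 7.45 against 8.45, 8.63 and 8.03, with no overlap and a difference of 1.06 (SE 0.39, adjusted p = 0.631).

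Gap43 differed by kind of sample more than by genotype. Spinal motor neurons had 11.19, 9.92 and 10.44 in wildtype and 12.38, 12.003 and 12.06 in the mutant, a 3.10-fold higher mean (log2 difference 1.63, SE 0.32, unadjusted p = 1.97e-04, adjusted p = 0.17). The mutant arrays were all higher and more alike, with an SD of 0.20 against 0.64. Facial motor neurons had 11.47, 12.69 and 12.20 in wildtype and 12.68, 12.67 and 12.25 in the mutant, which overlapped (difference 0.41, SE 0.27, adjusted p = 0.582). Wildtype facial neurons thus had a Gap43 level close to that of mutant spinal neurons, with means of 12.12 and 12.15. Tissue read 14.58, 14.41 and 14.31 in wildtype and 14.52, 14.55 and 14.51 in the mutant, a difference of 0.09.

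Ecel1, which encodes a neuronal membrane protein of the neprilysin metalloprotease family that is induced by nerve injury, varied little within each group except wildtype spinal motor neurons, where its SD was 0.64. Its level was 13.36, 12.71 and 12.09 in wildtype and 13.63, 13.43 and 13.55 in mutant spinal motor neurons (difference 0.81, SE 0.27, adjusted p = 0.598). The facial levels were 14.43, 14.32 and 14.34 against 14.24, 14.08 and 14.15 (difference -0.21, SE 0.12, adjusted p = 0.507). Tissue had 11.90, 11.71 and 11.82 against 11.65, 11.68 and 11.46 (difference -0.21, SE 0.10, adjusted p = 0.757). The genotypes did not overlap in any of the 3, with the mutant higher in spinal neurons and lower in the others. Wildtype spinal replicate 1, at 13.36, came close to the mutant arrays.

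Gadd45a, a protein induced by DNA damage and other stress, overlapped between genotypes in all kinds of sample. Spinal motor neurons had 9.61, 10.99 and 10.73 in wildtype and 11.33, 11.83 and 10.70 in the mutant (difference 0.84, SE 0.40, adjusted p = 0.703). The facial difference was -0.09 (95% confidence interval -0.91 to 0.72) and the tissue difference 0.03 (-0.24 to 0.29).

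Of the neuropeptides, galanin was lower in SOD1 mutant facial motor neurons. Gal read 12.03, 10.78 and 11.57 in wildtype and 9.92, 9.64 and 8.24 in the mutant, so that every mutant array was below every wildtype array. The log2 difference was -2.19 (SE 0.46, unadjusted p = 4.25e-04, adjusted p = 0.117 in limma). Mutant replicate 3, at 8.24, lay within the range of the Y-linked genes, so no fold is given. Spinal motor neurons had 9.88, 8.12 and 10.15 in wildtype and 8.74, 9.32 and 9.26 in the mutant, a difference of -0.28 (95% confidence interval -1.55 to 0.99) with the mutant arrays inside the wildtype range. Tissue had 10.51, 10.50 and 10.58 against 10.51, 11.09 and 10.98, a difference of 0.33 (SE 0.16, adjusted p = 0.749).

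Adcyap1, which encodes the neuropeptide PACAP, was too variable among motor neuron arrays for its genotype difference to be resolved. Probe set 1423427_at read 9.86, 6.78 and 8.35 in wildtype and 10.62, 9.57 and 6.71 in mutant spinal motor neurons, a difference of 0.64 (95% confidence interval -1.49 to 2.76). Facial motor neurons had 8.36, 9.42 and 9.16 against 7.65, 9.54 and 10.36, a difference of 0.20 (-1.24 to 1.65). Its tissue arrays were tight, with a difference of 0.07 (-0.30 to 0.44). Probe set 1441778_at averaged 6.63 to 8.28 in the motor neuron groups and overlapped in every genotype comparison.

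**Figure D3:**
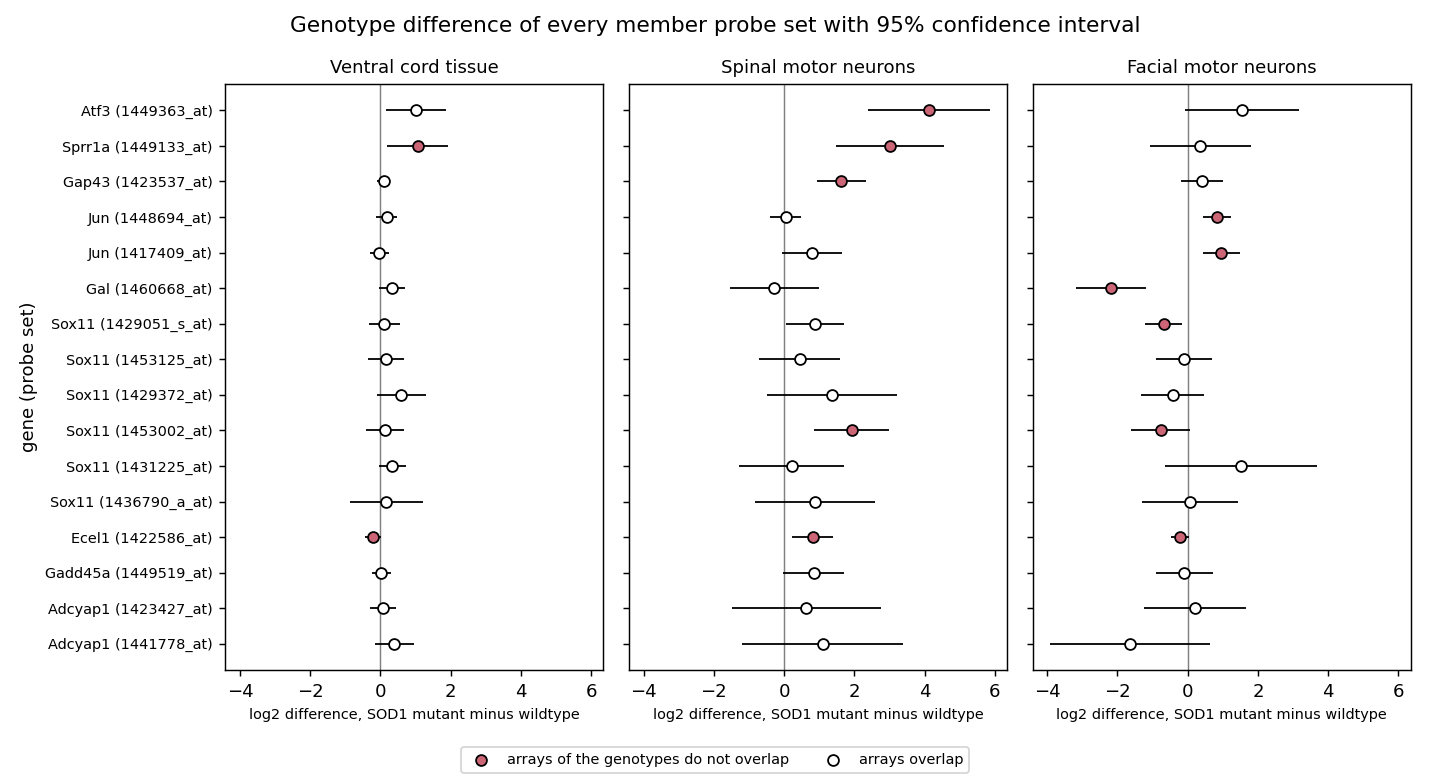
Log2 difference, SOD1 mutant minus wildtype (horizontal axes), of the 16 probe sets (vertical axis) in tissue, spinal motor neurons and facial motor neurons, with the 95% confidence interval of the limma fit as bars. Filled points are probe sets whose 3 mutant and 3 wildtype arrays do not overlap: Atf3, Sprr1a, Gap43, Sox11 1453002_at and Ecel1 in spinal motor neurons, both Jun probe sets above 0 and Gal, Sox11 1429051_s_at, Sox11 1453002_at and Ecel1 below 0 in facial motor neurons, and Sprr1a above 0 and Ecel1 below 0 in tissue.

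Counted together in spinal motor neurons, 0 of the 16 probe sets passed the adjusted threshold in limma, where 0.0377% of all 45037 did. An unadjusted p under 0.05 was reached by 6 of 16, against 7.1% of all probe sets. The mutant was higher in 15 of 16, against 49.2% of all, with Gal the exception, and the median difference was 0.86 against -0.01 over all. The genotypes did not overlap, with the mutant higher, in 5 of 16, against 5.8% of all, and with the mutant lower in 0 of 16, against 6.38% of all. The members were chosen with earlier results of these data known, and 6 of the 16 probe sets are of Sox11. These shares, and those of the members below, are therefore descriptive and not a test of the set.

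Facial motor neurons gave a mixed picture. Again 0 of 16 passed, as did 0% of all probe sets, and 4 of 16 had an unadjusted p under 0.05, against 12.4% of all. The mutant was higher in 8 of 16, against 50.8% of all, with a median of -0.01 against 0.01. Both Jun probe sets were higher without overlap (9.27% of all probe sets were), and Gal, 2 of the Sox11 probe sets and Ecel1 were lower without overlap (8.52% of all).

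Most tissue differences were positive, the largest being 1.06 for Sprr1a and 1.003 for Atf3. None of the 16 passed (0.0777% of all did), and 2 of 16, Atf3 and Sprr1a, had an unadjusted p under 0.05, against 6.96% of all. The mutant was higher in 14 of 16, against 49.1% of all, with a median of 0.16 against -0.01. Sprr1a was the 1 probe set higher without overlap (5.86% of all) and Ecel1 the 1 lower without overlap (6.62% of all).

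Whether the genotype difference itself differed between kinds of sample was tested as an interaction. Spinal motor neurons against facial motor neurons gave 0 of 16 past the adjusted threshold (0.00222% of all) and 8 of 16 at an unadjusted p under 0.05 (7.8% of all). The signed genotype difference, mutant minus wildtype, was greater in spinal neurons for 13 of 16, against 48.5% of all, and these include Gal, where it was -0.28 in spinal and -2.19 in facial neurons. The smallest p belonged to Sox11 1453002_at, whose genotype difference was 2.70 higher in spinal than in facial neurons (SE 0.60, adjusted p = 0.231). Ecel1 followed with 1.02 (SE 0.31, adjusted p = 0.443) and Sox11 1429051_s_at with 1.55 (SE 0.49, adjusted p = 0.466). For Jun the value was -0.79 on 1448694_at (SE 0.28, adjusted p = 0.522) and -0.16 on 1417409_at (SE 0.52, adjusted p = 0.965). Atf3 had 2.57 (SE 1.19, adjusted p = 0.631) and Gal 1.92 (SE 0.77, adjusted p = 0.571).

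Spinal motor neurons against tissue likewise gave 0 of 16 (0.00666% of all passed), with 4 of 16 at an unadjusted p under 0.05 (6.95% of all). The signed difference was greater in spinal neurons than in tissue for 13 of 16, against 50.1% of all. Gap43 had the smallest p, with a genotype difference 1.54 higher in the neurons (SE 0.33, adjusted p = 0.421). Atf3 differed by 3.11 (SE 1.07, adjusted p = 0.675). Ecel1 differed by 1.03 (SE 0.33, adjusted p = 0.675). None of the genotype differences is therefore shown to be particular to 1 kind of sample.

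The choice of arrays that share an estimate of the spread changed which members passed. With all 18 arrays in 1 limma fit, Gap43 (adjusted p = 0.00561), Sox11 1453002_at (0.0178), Atf3 (0.0183) and Sprr1a (0.0397) passed in spinal motor neurons, and Gal (0.0241) and Jun 1448694_at (0.0305) in facial motor neurons. That fit called 174 of all 45037 probe sets in spinal neurons, 543 in facial neurons and 6 in tissue. In the reported setting, with only the 6 arrays of each comparison, 17, 0 and 35 were called, and no member passed.

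Markers of other cell types and the actin measure of RNA quality moved with genotype on the same arrays. Microglial markers, 11 genes of the resident immune cells, summed to 5254 to 18600 intensity units on wildtype and 42590 to 53040 on SOD1 mutant spinal motor neuron arrays. Of these markers 9 of 11 were higher in the mutant, against 49.2% of all probe sets. In limma 1 of 11 passed (Csf1r, 1.97, SE 0.30, adjusted p = 0.0411), against 0.0377% of all. The same list summed to 51590 to 54850 in wildtype and 71930 to 76610 in mutant tissue, and to 7690 to 22670 and 11390 to 13570 in facial neurons. Astrocyte markers, 7 genes, summed to 100200 to 126800 and 128200 to 141500 on the spinal arrays, with Gfap passing (2.85, SE 0.24, adjusted p = 0.00073). The part of these cells in the member differences was not tested.

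The motor neuron markers themselves overlapped, with sums of 80540 to 91350 in wildtype and 79660 to 107900 in mutant spinal neurons, against 12010 to 17310 in tissue. Interneuron markers ranged from 2914 to 67340 over the 3 mutant spinal arrays and from 7133 to 13030 over the wildtype ones. Mutant replicate 2, which had the highest interneuron mean, also had the highest Atf3 level, and without it the Atf3 difference was 3.71 and the Gap43 difference 1.71. Mutant replicate 3, which had the lowest interneuron mean, was the lowest of the 3 mutant spinal arrays for Atf3 (11.07), Sprr1a (9.06), Sox11 1429051_s_at (11.22), Sox11 1453002_at (9.91), Gadd45a (10.70) and Adcyap1 1423427_at (6.71). It was also the lowest for Sox11 1453125_at (9.32) and 1429372_at (8.76), and not for the other 2 Sox11 probe sets, Adcyap1 1441778_at, Gap43 (12.06), Ecel1 (13.55), Gal or Jun. The part of interneuron RNA in these levels was not tested. Sensory neuron markers summed to at most 2042 in any group.

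**Figure D4:**
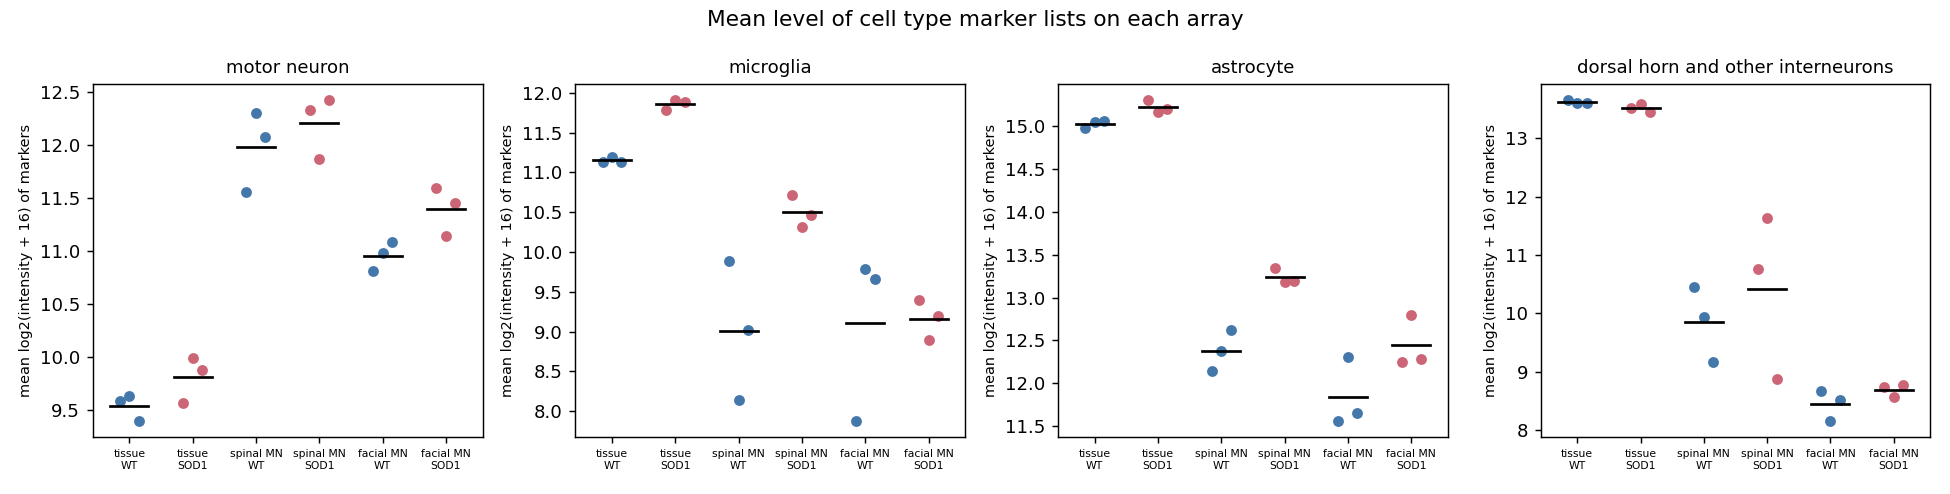
Mean level of the markers of motor neurons, microglia, astrocytes and interneurons (vertical axes, mean log2(intensity + 16)) on each array of the 6 groups (horizontal axes; blue wildtype, red SOD1 mutant, black bars are means). Microglial and astrocyte means are higher on all 3 SOD1 mutant spinal motor neuron arrays than on the wildtype ones, and interneuron means of the mutant spinal arrays run from 8.86 to 11.63.

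The ratio of the 3′ to the 5′ actin control, which rises as RNA is degraded or copied short, separated the genotypes in both kinds of motor neuron and overlapped in tissue. It was 40.9 to 56.9 in wildtype and 25.3 to 39.1 in mutant spinal neurons, 59.7 to 74.4 and 26.6 to 59.0 in facial neurons, and 1.59 to 1.70 and 1.56 to 1.78 in tissue. With this ratio as a covariate the facial differences were 0.37 for Jun 1448694_at, 0.33 for Jun 1417409_at and -1.41 for Gal. The spinal differences were 4.86 for Atf3, 4.17 for Sprr1a, 2.37 for Gap43 and 1.60 for Sox11 1453002_at. Under this covariate 0 of 45037 probe sets passed in limma in either kind of motor neuron. Of 14 uncalled member values that changed sign by more than the spread between arrays, 11 did so in this setting. Because the actin ratio separated the genotypes, its part and that of genotype cannot be told apart. The same ratio of the Gapdh control overlapped between genotypes. It was 19.1 to 49.7 in wildtype and 20.5 to 21.7 in mutant spinal neurons, and 20.3 to 27.3 and 14.5 to 21.5 in facial neurons.

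In wildtype animals, spinal motor neurons were compared with the surrounding ventral cord tissue. Of the 16 probe sets 5 passed in limma, while 30.3% of all probe sets did, so the share of members was close to the background. Passing and higher in the neurons were 3 of 16 (15.5% of all), and passing and lower 2 of 16 (14.8% of all). An unadjusted p under 0.05 was reached by 7 of 16 (40.6% of all), 7 of 16 were higher (54.9% of all), and 3 of 16 each lay higher (24.6% of all) or lower (21.6% of all) without overlap. Jun 1448694_at (1.76, SE 0.20, adjusted p = 1.56e-04), Sox11 1429051_s_at (1.65, SE 0.39, adjusted p = 0.00984) and Ecel1 (0.91, SE 0.29, adjusted p = 0.0372) were higher in the neurons. Gap43 (-3.92, SE 0.29, adjusted p = 1.4e-05) and Adcyap1 1423427_at (-2.75, SE 0.65, adjusted p = 0.01) were lower.

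Probe sets of 1 gene disagreed in this comparison. The other Jun probe set gave -0.60 (SE 0.41, adjusted p = 0.301), and the other 5 Sox11 probe sets ran from -1.20 to 1.003 with none passing. Atf3 differed by 0.09 and Sprr1a by 0.60, both near background in both groups. The Ecel1 call was lost without wildtype spinal replicate 1 (0.59, adjusted p = 0.0683) or replicate 2 (0.92, adjusted p = 0.0694). It was also lost without any 1 of the wildtype tissue arrays (0.87 to 0.96, adjusted p = 0.0845 to 0.114). Over all 16 alternative settings of the limma fit the call held in 10, and the largest adjusted p was 0.124. The actin ratio differed between neurons and tissue without any overlap, so RNA copying and kind of sample cannot be told apart here. Over all probe sets the median difference was 0.14 and 51.2% of those called were higher in the neurons, against 0.48 and 67.7% when arrays were set to a common median instead.

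Between wildtype spinal and facial motor neurons, Ecel1 had the smallest p of the members. Of the 16 probe sets 1 passed, against 1.26% of all: Ecel1 was lower in spinal neurons by 1.64 (SE 0.26, adjusted p = 0.0114), with 12.09 to 13.36 against 14.32 to 14.43. Gap43 (-1.60, SE 0.38, adjusted p = 0.0658), Gal (-2.08, SE 0.52, adjusted p = 0.0814) and Sox11 1453002_at (-1.59, SE 0.51, adjusted p = 0.161) were also lower in spinal neurons without overlap. The Ecel1 call was lost without spinal replicate 3 (-1.33, adjusted p = 0.051), facial replicate 1 (-1.61, adjusted p = 0.0568) or facial replicate 3 (-1.66, adjusted p = 0.0788), and when the actin ratio entered as a covariate (-0.79, adjusted p = 0.448). Counted over the 16, 1 passed and was lower (0.631% of all), 4 had an unadjusted p under 0.05 (15.2% of all) and 4 were higher (50.8% of all). Without overlap, 4 were lower (10.3% of all) and 1 was higher (10.9% of all), which was Sox11 1431225_at.

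The group means fell in a different order for each gene. Ecel1 ran from mutant and wildtype tissue (11.60 and 11.81) over wildtype and mutant spinal neurons (12.72 and 13.53) to mutant and wildtype facial neurons (14.16 and 14.36). Gap43 ran from wildtype spinal neurons (10.51) over wildtype facial (12.12), mutant spinal (12.15) and mutant facial neurons (12.53) to wildtype and mutant tissue (14.44 and 14.52), and the arrays of the middle 3 groups overlapped. Gal was lowest in mutant spinal, mutant facial and wildtype spinal neurons (9.11, 9.27 and 9.38), whose arrays overlapped, and highest in wildtype facial neurons (11.46).

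Other genes of the injury response were listed for comparison, each read by its brightest probe set. Of 48 such genes 47 were on the array. In spinal motor neurons 31 of 47 were higher in the mutant, 0 passed in limma, 9 had an unadjusted p under 0.05, and the median difference was 0.18 against -0.01 over all probe sets. The smallest p belonged to Vgf, a secreted neuropeptide precursor (1.34, SE 0.32, adjusted p = 0.369). Facial motor neurons had 31 of 47 higher, 0 passing and 8 at the unadjusted level (median 0.15), led by Klf7, a transcription factor of axon growth (0.91, SE 0.19, adjusted p = 0.118). Tissue had 33 of 47 higher, 0 passing and 12 at the unadjusted level (median 0.13), led by Cd44, a hyaluronan receptor that reactive glia also make (0.84, SE 0.12, adjusted p = 0.0583). Over all probe sets 49.2% were higher in the mutant in spinal neurons, 50.8% in facial neurons and 49.1% in tissue. The unadjusted level was reached by 7.1%, 12.4% and 6.96% of all, and 0.0377%, 0% and 0.0777% passed. With 1 probe set a gene and dim ones filtered out, 1037, 1949 and 1083 of 10916 reached the unadjusted level, and 7, 0 and 70 passed. The same shares stand beside the genotype counts of the lists below.

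Between wildtype spinal neurons and tissue, 20 of these 47 genes passed as higher and 7 as lower in limma. Over all probe sets, which are not limited to 1 a gene, 15.5% and 14.8% did. With 1 probe set a gene and dim ones filtered out, a closer comparison, 3880 of 10916 passed as higher and 2524 as lower. Among them Lgals1 (2.90), Gfra1, a GDNF co-receptor (2.53), and Anxa2 (1.84) were higher in the neurons and the adhesion molecule Chl1 was lower (-2.48). Chl1 was also the 1 gene of the list that passed in limma between wildtype spinal and facial neurons, at -1.20 (adjusted p = 0.0379). In that comparison 1.26% of all probe sets passed, and 432 of 10916 with 1 probe set a gene and dim ones filtered out.

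The partners and activators of ATF3 and JUN had no genotype call. Of 16 AP-1 and ATF partners 5 were higher in mutant spinal neurons, 11 in facial neurons and 8 in tissue, with 0 passing in each and 3, 5 and 1 at an unadjusted p under 0.05. The smallest p belonged to Fos in spinal neurons (0.66, adjusted p = 0.637), Jund in facial neurons (-0.54, adjusted p = 0.151) and Jdp2 in tissue (-0.29, adjusted p = 0.659). Of 11 stress kinases and scaffolds upstream of JUN and Ddit3, 9 were on the array, with 0 passing for genotype and 1, 0 and 1 at the unadjusted level in the same order. Mapk8ip1, a scaffold of JUN kinases, had the smallest p in spinal and in facial neurons (1.97, adjusted p = 0.651, and 1.56, adjusted p = 0.406).

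Receptors of the neuropeptides and the cholinergic genes had no genotype call either. Of 6 galanin and PACAP receptors 5 were on the array, with 0 passing in limma in any of the 3 kinds of sample and 0, 1 and 2 at an unadjusted p under 0.05 in spinal neurons, facial neurons and tissue. Galr1, a galanin receptor, had the smallest p in spinal neurons (1.74, adjusted p = 0.735). Of 8 cholinergic motor neuron genes 7 were higher in mutant spinal neurons and 6 in mutant facial neurons, with 0 passing and 1 at the unadjusted level in each. Slc18a3, the vesicular acetylcholine transporter, had the smallest p in both (0.80, adjusted p = 0.682, and 0.85, adjusted p = 0.172). Between wildtype spinal neurons and tissue 6 of the 8 passed as higher. Over all probe sets 15.5% did, and 3880 of 10916 with 1 probe set a gene and dim ones filtered out. Among the 6 were Mnx1 (4.43), Isl1 (4.40), Prph (3.55) and Chat (1.87), which fits the label of motor neurons.

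The genes whose levels ran most like Atf3 were sought over the 12 motor neuron arrays among 10916 genes. They were Mif (Pearson r = 0.93), A930033H14Rik (0.92), Plppr2 (0.89), Nelfcd (0.89) and Hspb1 (0.88). Hspb1 encodes a small heat shock protein that injured neurons make, and it averaged 15.64 in wildtype and 16.20 in mutant spinal neurons. Among the members themselves Sprr1a ran most like Atf3 (r = 0.65), followed by Sox11 (0.54) and Gadd45a (0.47), while Gal ran against it (-0.48). Within the 6 spinal arrays the order differed, with Ecel1 and Sox11 at 0.90, Gap43 at 0.79 and Sprr1a at 0.63, and within the 6 facial arrays Sprr1a was at 0.77 and Sox11 at -0.62. These values are a description over arrays of 4 groups, which share genotype, kind of neuron and RNA copying, and they carry no test.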

How the data were processed

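Per the labels' protocols, RNA was copied by T7-based linear amplification; the authors' array processing is not given in the sources used here. The deposited values are linear intensity values, whose trimmed mean (2% at each end) is 2500 on every array. Array medians ran from 533 to 583 for tissue and from 286 to 341 for the neurons. The 64 control probe sets were left out. The remaining values were put on the log2(intensity + 16) scale, quantile normalized over the 18 arrays and tested with limma 3.58.1 in R 4.3.3 (lmFit, eBayes with trend), without a filter, each comparison on its own arrays, two-sided, with Benjamini-Hochberg adjustment over 45037 probe sets at 0.05. All 16 member probe sets lay above the 40th percentile of mean level (7.65). The code was tested on simulated data. Genes were named from the platform annotation, which can be old. The members and lists were chosen with earlier results of these data known. All member probe sets are named; from each related list, up to 4 called genes without overlap, or otherwise the gene with the smallest p. For likeness, the 5 genes with the highest r are given. The 3 arrays a group limit the precision. Arrays of the same replicate number were not treated as pairs (correlations of deviations -0.0095 to 0.0497). These values do not exclude that such arrays share animals. Alternatives varied scaling, pseudocount (1 or 64), filter, variance model, actin ratio, replicate block and arrays left out.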

Additional observations from a re-analysis of the deposited data

Results flagged for a closer look

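Sox11 probe set 1453002_at and Ecel1 had genotype differences in opposite directions whose arrays did not overlap. Sox11 probe set 1453002_at was 1.92 higher in SOD1 mutant than in wildtype spinal motor neurons and differed by -0.77 in facial motor neurons. The interaction between the 2 gave an adjusted p of 0.231 in limma. All other Sox11 probe sets overlapped between genotypes in spinal motor neurons. In facial motor neurons 1431225_at (1.53) and 1436790_a_at (0.07) were positive. Ecel1 was 0.81 higher in mutant spinal motor neurons and differed by -0.21 both in facial motor neurons and in tissue. Its interaction gave an adjusted p of 0.443 against facial neurons and 0.675 against tissue. With all 18 arrays in 1 limma fit, the interaction of Sox11 1453002_at passed (adjusted p = 0.0289). That fit called 93 of all 45037 probe sets for this interaction, against 1 as reported. Groups of 3 arrays were not searched for single outlying arrays.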

How the results depend on the processing

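Of 2050 values of the 16 member probe sets under other settings in 7 comparisons, 1989 kept their side of the threshold without a change of sign beyond the spread between arrays. A further 36 passed it newly, 11 no longer passed (all Ecel1), and 14 uncalled values changed sign by more than that spread, 11 of them with the actin ratio as covariate. No called value changed sign. Tissue genotype had 0 members called in every setting run, and wildtype spinal neurons against tissue had 4 to 6 (5 as reported). For genotype in spinal motor neurons, 0 members became 4 with all 18 arrays in 1 fit, 2 with array weights, and 0 to 2 with 1 array left out (Gap43 without wildtype replicate 1, adjusted p = 0.0269; Gap43, 0.0424, and Atf3, 0.0251, without wildtype replicate 2). With the replicate number as a block, 2 passed there (Atf3, 0.0145, and Gap43, 0.0481), although the numbers are not known to pair the arrays. For facial motor neurons, 0 became 2 with all 18 arrays, 5 with array weights and 0 to 2 with 1 array left out (both Jun probe sets without mutant replicate 2, adjusted p = 0.0205 and 0.034). The interaction with tissue gave 1 with array weights and 0 to 1 with 1 array left out (Gap43 without wildtype spinal replicate 1 or 2, 0.0104 and 0.0251). The interaction with facial neurons gave 1 with all 18 arrays. For wildtype spinal against facial neurons, 1 became 0 without the trend and with the actin ratio, 4 with all 18 arrays and with array weights, 2 with the replicate block, 2 without both wildtype motor neuron arrays numbered 1, and 0 to 2 with 1 array left out. The replicate block changed no other member count by over 1.5 times. Calls over all 45037 probe sets moved in the same settings. In spinal neurons they were 174 with all 18 arrays, 36 with array weights and 39 with the block (17 as reported). They were 29 without wildtype spinal replicate 1 and 618 without replicate 2. In facial neurons they were 543 with all 18 arrays, 4506 with array weights and 329 without mutant replicate 2 (0 as reported). The interaction with tissue had 8 with array weights, 12 without wildtype spinal replicate 1 and 982 without replicate 2 (3 as reported). The interaction with facial neurons had 93 with all 18 arrays (1 as reported). Wildtype spinal against facial neurons had 3735 with all 18 arrays, 4467 with array weights and 423 with the block (566 as reported). The causes of these shifts were not tested. Over all probe sets, calls ranged from 0 to 92 in tissue (35 as reported; 4 to 41 with 1 array left out), 0 to 174 in spinal neurons (17; 2 to 618 with 1 array left out), 0 to 4506 in facial neurons (0; 0 to 329), 0 to 8 and 0 to 109 in the interactions (3 and 1; 1 to 982 and 0 to 52 with 1 array left out), 6404 to 15297 for wildtype neurons against tissue (13632; 9463 to 15546) and 8 to 4467 for wildtype spinal against facial neurons (566; 67 to 1049). At a common median 60.9% in place of 77.1% of tissue genotype calls were higher. The actin ratio was not used for wildtype neurons against tissue, where its values lie too far apart. The 3 arrays a group limit all values, and levels near background limit Atf3, Sprr1a, Adcyap1, the dimmer Sox11 probe sets and the lowest Gal arrays.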
